A study of Rattus norvegicus with 2 samples.

Results

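Glutamatergic neurons are the excitatory nerve cells of the hypothalamus, and 167 of the 8675 cells kept from the hypothalamus of young female rats were assigned to them. The cells were chosen by measured counts of unique molecular identifiers (UMIs), tags that mark each captured RNA molecule once. A member had at least 200 detected genes, at most 30% of its UMIs in mitochondrial genes and at least 4 of the 6 neuronal genes *Snap25*, *Syt1*, *Stmn2*, *Snhg11*, *Celf4* and *Rbfox3*. It also had at least 2 UMIs of *Slc17a6*, the vesicular glutamate transporter VGLUT2, and at most 2 UMIs of *Gad1*, *Gad2* and *Slc32a1* together, the genes for GABA synthesis and vesicular GABA loading. There were 80 members among 4296 Control cells, 1.86% (exact binomial 95% interval, 1.48 to 2.31%), and 87 among 4379 SC300 cells, 1.99% (1.59 to 2.44%). The log2 ratio of these shares, SC300 over Control, was 0.09 (-0.36 to 0.55).

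Both groups were female Sprague Dawley rats killed on PND 29, and tissue holding the AVPV and ARC areas was dissociated with collagenase. The SC300 rats had been given, at PND 0.5, a silicone capsule loaded with 300 µg of estradiol benzoate, an estrogen. For Control rats the methods describe a capsule with oil, and the sample labels call them intact. The series description ties the name SC300 to a capsule with oil alone, while the sample title gives EB300, and the groups follow the titles and the methods. Each group was 1 pool of 3 rats and 1 droplet-based 3′ library, so the variation between rats was not measured and no test between the groups could be made. Every interval given here is an exact 95% interval for counting error alone, and "past 2-fold" is a description of size. Between pooled libraries, a different mix of cells and a different RNA content per cell can both change a summed level.

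Hypothalamic glutamatergic neurons load glutamate with VGLUT2 and are found in the ventromedial, paraventricular, supraoptic, premammillary and mammillary nuclei, and in part of the ARC kisspeptin population. Many of them also release neuropeptides such as oxytocin, vasopressin, thyrotropin-releasing hormone (*Trh*), corticotropin-releasing hormone (*Crh*) or PACAP (*Adcyap1*). The ventromedial nucleus takes part in female sexual behaviour and energy balance and is a known site of estrogen action. Levels below are CPM, the UMIs of a gene scaled by the summed UMIs of the same cells, and because the 3′ method counts each molecule once, no gene length enters them.

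Members were deeply covered, with 3218398 UMIs in Control and 3698246 in SC300. The median member had 36193 UMIs in Control (range 9684 to 122324) and 38024 in SC300 (2877 to 120799), and the median share of mitochondrial UMIs was 11.4% and 12%. *Slc17a6* was at 317 CPM in Control and 320 CPM in SC300, with a median of 10 and 12 UMIs per member. These values were fixed in part by the choice of cells, as were the low counts of *Gad1* (3 and 11 UMIs), *Gad2* (7 and 9) and *Slc32a1* (3 and 2). Among genes the choice did not use, *Slc17a7* (VGLUT1) was at 0 UMIs in both libraries, which allows up to 3 UMIs, and *Slc17a8* (VGLUT3) had 3 and 9 UMIs. Of the markers proposed for these neurons, *Adcyap1* was found in 54 of 80 and 50 of 87 members and *Fezf1*, a transcription factor of the developing ventromedial nucleus, in 24 and 29. *Nr5a1* (SF-1), the defining factor of the ventromedial nucleus, had 1 UMI in Control and 2 in SC300, so the data went against this marker and the cells are described below by *Fezf1*.

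The values at the thresholds were as follows. There were 2 members with exactly 2 *Slc17a6* UMIs in each library, and 3 Control and 4 SC300 cells had 1 UMI and met the other criteria. With the GABA genes, 4 and 1 members had the allowed 2 UMIs, and 1 and 2 cells with 3 UMIs were left out. The neuronal count was exactly 4 genes in 13 and 16 members, and 7 and 6 cells with 3 genes were left out. The highest mitochondrial share inside was 28.9% and 29.6%, the lowest outside was 30.5% and 30.2%, and 17 cells in each library were left out by this limit alone. A limit of 10% left 23 members in Control and 9 in SC300. Of all cells passing the neuronal criteria, 335 in Control and 302 in SC300, the GABAergic mirror of the rule (at least 3 UMIs of the GABA genes and at most 1 of *Slc17a6*) held 218 and 179, 24 and 27 passed both transmitter limits, and 13 and 9 passed neither. The libraries shared 9 barcode sequences, none of them of a member.

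Some members also carried RNA of another cell type. In SC300, 1 member held 7986 UMIs of the haemoglobin genes *LOC103694857* and *Hbb*, against at most 11 in any other SC300 member, and 1 held 1057 UMIs of 5 myelin genes, against at most 41. The endothelial genes *Cldn5* and *Flt1* reached 324 UMIs in 1 Control member and 152 in 1 SC300 member, with at most 2 in the others. Astrocyte genes (*Agt*, *Aqp4*, *Gja1*, *Slc1a3*) passed 20 UMIs in 4 Control and 3 SC300 members. Counting also mural, microglia, tanycyte and stromal genes, 6 members of each library passed such a limit, and the counts below are given with and without them where they decide the result.

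The glutamatergic neurons were compared with the GABAergic neurons within each library. Of 7178 genes with at least 100 UMIs in both classes together in each library, the genes of the rule left out, 53 were past 2-fold higher in glutamatergic than in GABAergic neurons in both libraries (0.738% of those measured) and 61 were past 2-fold lower in both (0.85%). The median log2 ratio over all these genes was -0.08 in Control and -0.06 in SC300. As the classes were separated by *Slc17a6* and the GABA genes in the same cells, these ratios are a description of what accompanies that choice.

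Among the genes with the highest ratios were *Oxt*, *Nrn1*, *Fezf1* and *Nhlh2*. *Fezf1* was at 67.4 CPM against 0.146 CPM in Control and 39.5 against 0.167 CPM in SC300, log2 ratios of 8.85 (6.36 to 14.16) and 7.88 (5.38 to 13.20). *Nrn1*, neuritin, which promotes neurite growth, was at 110 and 59.8 CPM in glutamatergic neurons and at 0 and 1 UMI in GABAergic neurons, a log2 ratio of at least 7.97 in Control (0 UMIs set to 3 over the class) and 8.48 (5.99 to 13.79) in SC300. *Nhlh2*, a neuronal basic helix-loop-helix factor linked to body weight and fertility, was detected in 43 and 39 members and in 1 GABAergic cell of each library. Both libraries thus showed the same near absence from GABAergic cells for these 3 genes.

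The peptide PACAP gene *Adcyap1* was 182 CPM in glutamatergic and 0.583 CPM in GABAergic neurons of Control, and 170 and 7.52 CPM in SC300. *Cbln1* and *C1ql2*, secreted synaptic organisers, had log2 ratios of 4.15 and 3.50 in Control and 3.06 and 3.29 in SC300. *Bdnf*, a neurotrophin, was at 3.90 and 2.67, and *Nptx2*, a secreted pentraxin of excitatory synapses, at 3.13 and 2.56. *Tmem163*, a zinc transporter, was more widespread, in 61 members of each library, with log2 ratios of 3.62 and 3.37. *Cpne9*, a copine, was at 3.69 and 3.73. For *Cpne9*, 3 members held 45.4% of the UMIs in Control and 73.8% in SC300, and for *C1ql2* 54.4% and 46.3%. *Pvalb*, a calcium buffer better known from inhibitory neurons, was higher too, at 92 against 2.48 CPM in Control and 118 against 2.01 CPM in SC300. It was found in only 8 and 6 members, 3 of which held 68.6% and 90.6% of its UMIs.

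Among the genes with the lowest ratios were *Dlx1* and *Dlx5*, homeobox factors of inhibitory neurons. *Dlx1* was found in 1 of 80 and 2 of 87 members against 132 of 218 and 108 of 179 GABAergic cells, with log2 ratios of -8.35 (-13.66 to -5.87) and -7.51 (-10.56 to -5.65). *Dlx5* had 0 UMIs in the members of both libraries, a log2 ratio of -5.10 or lower in Control and -5.23 or lower in SC300. *Six6*, a factor of the developing hypothalamus, was at -3.91 and -3.71. The ARC peptides *Agrp* and *Ghrh* were at 5.59 and 4.66 CPM in Control members, against 1036 and 371 CPM in GABAergic neurons, and *Gal* (galanin) was at 102 against 1102 CPM. *Hdc*, which makes histamine, had 0 and 3 UMIs in members, *Ada* (adenosine deaminase) had 2 and 1, and the unnamed locus *AABR07059679.2* had 1 and 0. *Hdc* was found in only 10 Control and 6 SC300 GABAergic cells, 3 of which held 68.3% and 77.2% of its UMIs there. *Ada* was found in 10 and 8 GABAergic cells, 3 of which held 80.3% and 74.2%.

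**Figure D1:**
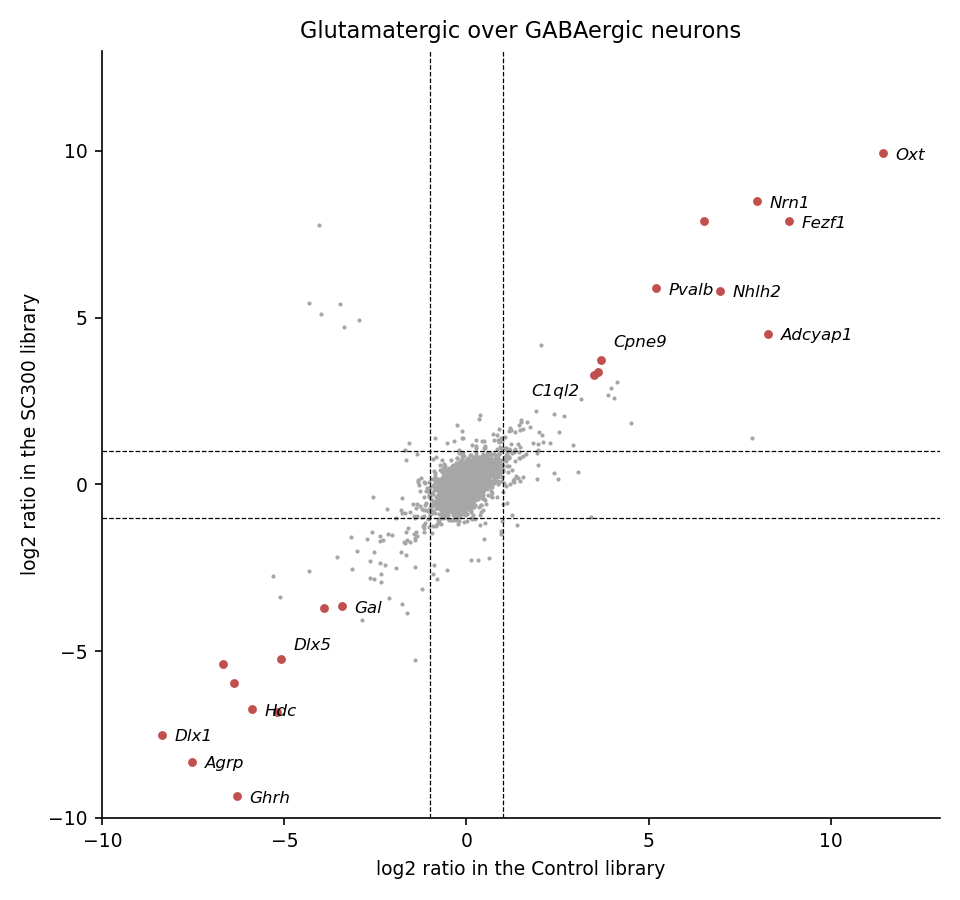
Each point is 1 of 7178 genes, with the log2 ratio of CPM in glutamatergic over GABAergic neurons in the Control library (x) and the SC300 library (y). Red points are the genes with the highest and lowest ratios in the library where the difference is smaller, dashed lines mark 2-fold, and *Oxt*, *Nrn1* and *Fezf1* lie at the upper right with *Agrp*, *Dlx1* and *Ghrh* at the lower left in both libraries.

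The gene lists are set beside the shares over all genes, 0.738% higher and 0.85% lower. Of 26 measured genes in the list of neuropeptides and other secreted factors, 11 were past 2-fold higher in glutamatergic neurons in both libraries (*Adcyap1*, *Kiss1*, *Tac3*, *Pdyn*, *Penk*, *Crh*, *Cck*, *Oxt*, *Cbln1*, *Cbln2*, *Bdnf*) and 6 were lower (*Pnoc*, *Nts*, *Gal*, *Npy*, *Agrp*, *Ghrh*). In the ventromedial nucleus list, 4 of 8 were higher and 1, *Dlk1*, was lower. Of 11 glutamate receptor genes only *Grik1*, a kainate receptor subunit, passed 2-fold, and it was lower, while none of 10 GABA receptor genes passed. *Scn1a* and *Cacna2d1*, a sodium channel and a calcium channel subunit, were higher among 17 sodium and calcium channel genes, and *Kcnmb4*, a subunit of the BK potassium channel, among 15 potassium channel genes. Of 22 vesicle release genes, the complexins *Cplx1* and *Cplx2* were lower.

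Region-marking transcription factors were found in groups of members in both libraries. At least 2 UMIs of *Nr5a1* or *Fezf1* were found in 23 of 80 Control members, 28.8% (19.2 to 40%), and 25 of 87 SC300 members, 28.7% (19.5 to 39.4%). *Sim1* or *Otp*, factors of paraventricular and supraoptic neurons, marked 17 (21.3%) and 18 (20.7%). *Tbx3* or *Isl1*, factors of the ARC, marked 12 (15%) and 14 (16.1%), and *Foxb1*, of the mammillary body, marked 10 (12.5%; 6.16 to 21.8%) and 4 (4.6%; 1.27 to 11.4%). The intervals of both libraries overlapped for each of these groups. In microglia, a cell type that should lack these factors (513 and 524 cells, with medians of 7004 and 7741 UMIs), the *Fezf1*, *Sim1* and *Foxb1* limits were met by 0 cells, which allows a share of up to 0.585% and 0.573%.

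2 of the region markers did not stand above other cells. *Tcf7l2*, of the thalamus, marked 2 and 4 members (2.5% and 4.6%), against 7.8% and 6.11% of microglia. *Lhx9*, of lateral neurons, marked none, which allows up to 3.75% and 3.45% of cells with such UMIs, and not of cells expressing the gene. When each member was thinned to 5000 UMIs (80 and 85 cells, 2 shallower SC300 cells left out), the *Fezf1* limit was met by 8 Control cells (10%) and 3 SC300 cells (3.53%). *Adcyap1* at 2 or more UMIs was found in 62.5% and 51.7% of members as deposited and in 26.3% and 21.2% when thinned.

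The *Fezf1* cells carried a shared set of genes that the marker itself did not choose. Of 4158 genes with at least 100 UMIs in the members of each library, 48 were past 2-fold higher in *Fezf1* cells than in the other members in both libraries (1.15%) and 43 were past 2-fold lower (1.03%). Of the 7 other measured genes of the ventromedial nucleus list, 4 were past 2-fold higher in both, with a list median of 1.42 in Control and 1.62 in SC300 against 0.06 and 0.04 over all genes. These were *Nptx2* (log2 1.91 and 1.56), *Gda*, guanine deaminase (1.42 and 1.68), *Cnr1*, the cannabinoid receptor CB1 (1.99 and 1.62), and *Lmo3*, a LIM-only transcription cofactor (1.64 and 2.15). *Sox14* had too few UMIs for this count and was at 44.7 against 10.3 CPM in Control and 43.9 against 6.08 CPM in SC300. *Adcyap1* was higher past 2-fold in SC300 alone (0.35 and 1.62), and so was *Bdnf* (-0.20 and 1.27). *Dlk1* was lower in *Fezf1* cells, at -2.94 (-4.28 to -1.85) in Control and -0.85 (-1.47 to -0.27) in SC300.

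The genes with the highest ratios in *Fezf1* cells, listed after their values were seen, were *C1ql2* (336 against 9.4 CPM in Control and 300.4 against 16.2 in SC300), *Lbhd2*, *Nr2f2* (COUP-TFII), *Nptx1*, *Glra2* (a glycine receptor subunit), *Rbfox1* (a splicing factor), *Camk1g*, *Hapln4* (a perineuronal matrix link protein), *Lmo3* and *Cnr1*. Among those with the lowest were *Crh*, *Cartpt*, *Pvalb*, *Cpne9*, *Avp*, *LOC102553190*, *Trh*, *Cck* and *Asb4*. *Crh* and *Trh* had 0 UMIs in the *Fezf1* cells of both libraries. *Crh* was at 217 and 140 CPM and *Trh* at 1131 and 43.4 CPM in the other members.

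Peptide genes were unevenly spread over the members, and for several of them a few cells held most of the UMIs. Others were spread more widely. The top 3 cells held 47.6% of the *Penk* UMIs in Control and 43% in SC300. For *Adcyap1* they held 19.3% and 21.6%. At least 100 UMIs of any of 9 peptides (*Oxt*, *Avp*, *Trh*, *Crh*, *Sst*, *Kiss1*, *Tac3*, *Pomc*, *Npvf*) were found in 21 Control and 18 SC300 members, and 3 and 5 of these passed with more than 1 peptide. The plot of peptide UMIs by cell shows this spread for 15 genes.

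**Figure D2:**
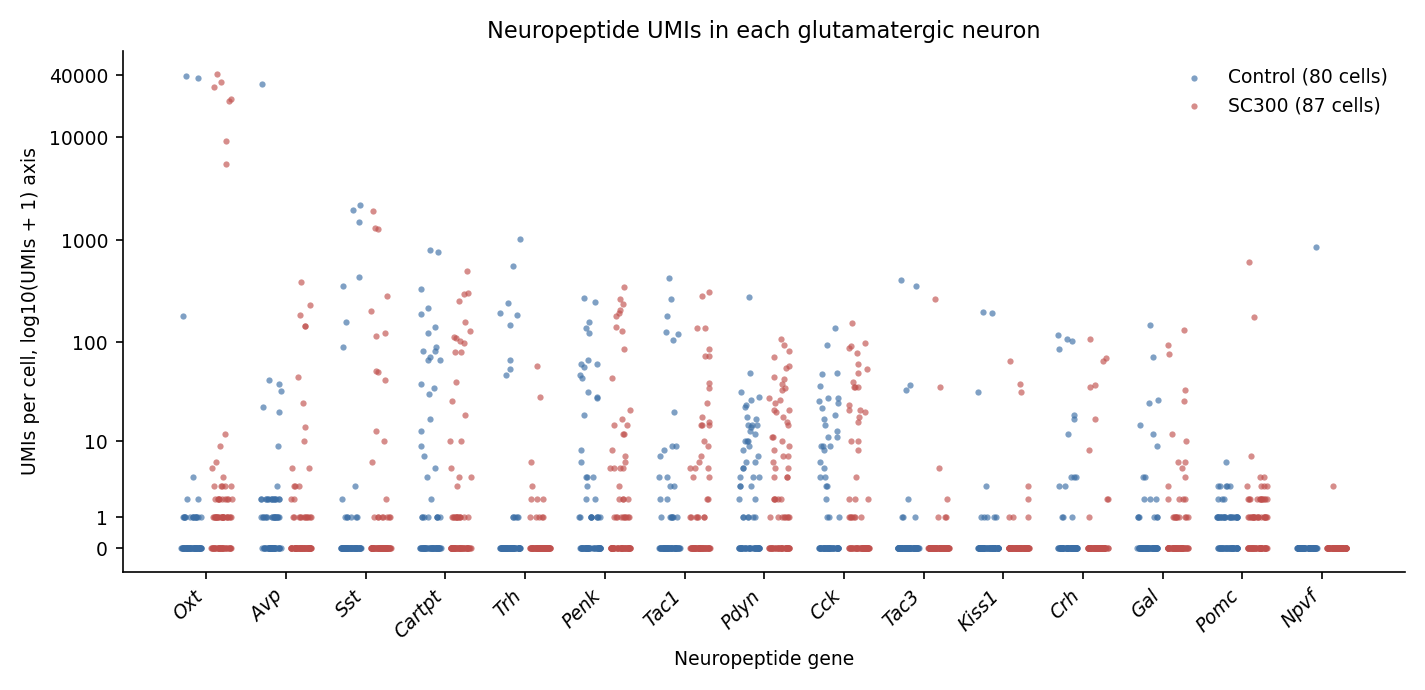
Each point is 1 glutamatergic neuron, with the UMIs of 15 neuropeptide genes on a log10(UMIs + 1) axis for 80 Control cells (blue) and 87 SC300 cells (red). *Oxt* passed 1000 UMIs in 2 Control and 7 SC300 cells and *Avp* in 1 Control cell, while *Penk*, *Pdyn* and *Cck* were found in many cells in both libraries. For *Pdyn*, 1 Control cell held 280 UMIs and the next held 50.

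*Oxt*, oxytocin, was the peptide gene with the most UMIs. It had 77159 UMIs in Control and 166609 in SC300, or 23974 and 45051 CPM, a log2 ratio of 0.91 (0.90 to 0.92), and 1.54 without the top cell of each library. In Control, 2 members with 39513 and 37442 UMIs held 99.7% of them, and in SC300, 7 members with 40868, 34247, 30630, 23669, 22404, 9239 and 5457 UMIs held 99.9%. In these cells *Oxt* made up 34.4 to 36.2% of all UMIs in Control and 6.07 to 34.5% in SC300. There were more such cells in SC300, and the UMIs of the 2 Control cells fell within the range of the 7 SC300 cells.

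The oxytocin cells were among the members with the most RNA, with 108694 and 109055 UMIs in Control and 76062 to 120799 in SC300, against medians of 35073 and 36332 in members with under 1000 UMIs of *Oxt* and *Avp*. They held low but present *Slc17a6*, with 4 and 5 UMIs in Control and 2 to 14 in SC300. *Cartpt* (CART) reached 124 and 217 UMIs in the Control cells and 10 to 160 in the SC300 cells, *Cck* reached 94 and 139 UMIs and 0 to 99, and *Pdyn* 24 and 29 UMIs and 28 to 108. All 3 and 7 members with at least 100 *Oxt* UMIs had at least 1 UMI of *Sim1*. Of the remaining SC300 members, the highest had 12 *Oxt* UMIs, and 2 or more *Oxt* UMIs were also found in 6.68% of SC300 microglia, against 0.195% of Control microglia.

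*Avp*, vasopressin, went the other way. It had 33208 UMIs in Control and 1223 in SC300, 10318 and 331 CPM, a log2 ratio of -4.96 (-5.05 to -4.88). A single Control member with 32991 UMIs held 99.3% of them, and no SC300 member passed 390. Without the top cell of each library the log2 ratio was 1.72, so the direction of *Avp* rested on 1 cell, which also carried markers of another cell type. Lower *Avp* levels were found in *Crh* cells, which in the paraventricular nucleus make both peptides: in Control, cells with 118, 109 and 102 *Crh* UMIs held 23, 39 and 20 *Avp* UMIs, and in SC300, cells with 107 and 65 *Crh* UMIs held 184 and 146. The cell with 65 *Crh* UMIs also held 1293 *Sst*, 114 *Cartpt* and 94 *Gal* UMIs. The remaining cells with over 50 *Crh* UMIs, with 86 in Control and 70 in SC300, held 2 and 3 *Avp* UMIs.

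The proximal promoters of *Oxt* and *Avp*, neighbouring genes on chromosome 3, and of *Rprm*, a gene lower in SC300 in many cells (below), are shown because *Oxt* and *Avp* held the most UMIs of the peptide genes over both libraries and *Rprm* is the gene of the estrogen-regulated list with the lowest ratio. They run from 250 bases before to 50 after the gene's start in RefSeq (rat GRCr8, a different build from that of the counts), 5′ to 3′ on the gene's strand. Capitals mark GGTCA on either strand, the half-site of the estrogen response element, which other nuclear receptors also bind. *Oxt* lies on the plus strand at chr3:138235504-138235803, *Avp* on the minus strand at chr3:138248473-138248772 and *Rprm* on the minus strand at chr3:58949986-58950285.
Oxt: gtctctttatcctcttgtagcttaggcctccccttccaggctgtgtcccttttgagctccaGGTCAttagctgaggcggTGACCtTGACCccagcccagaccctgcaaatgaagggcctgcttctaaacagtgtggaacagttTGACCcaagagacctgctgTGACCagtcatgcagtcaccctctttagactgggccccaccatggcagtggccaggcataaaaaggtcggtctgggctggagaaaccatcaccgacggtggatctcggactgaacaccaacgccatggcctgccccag
Avp: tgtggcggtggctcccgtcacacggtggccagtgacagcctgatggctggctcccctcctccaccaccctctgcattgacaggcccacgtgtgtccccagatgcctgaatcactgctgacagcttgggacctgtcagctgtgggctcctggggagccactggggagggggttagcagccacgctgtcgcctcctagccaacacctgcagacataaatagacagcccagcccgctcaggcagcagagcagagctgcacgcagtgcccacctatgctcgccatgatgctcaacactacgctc
Rprm: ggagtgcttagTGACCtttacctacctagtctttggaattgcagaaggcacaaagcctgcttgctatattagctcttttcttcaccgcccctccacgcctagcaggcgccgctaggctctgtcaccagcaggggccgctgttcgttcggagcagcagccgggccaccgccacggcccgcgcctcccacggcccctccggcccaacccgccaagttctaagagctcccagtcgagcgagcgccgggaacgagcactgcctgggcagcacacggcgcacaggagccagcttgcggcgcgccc
*Oxt* held 5 half-sites, which began 189, 171, 165, 107 and 88 bases before its start, *Rprm* held 1 at 239 bases before and *Avp* held none. The half-site was found in 40.5% of 33469 promoters of this length, and the full palindrome GGTCANNNTGACC, in none of the 3, in 9 promoters (0.0269%). A match to these letters is not a bound site.

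*Trh* was lower in SC300 in more than 1 cell. It had 2527 UMIs in Control and 107 in SC300, or 785 and 28.9 CPM, a log2 ratio of -4.76 (-5.06 to -4.48), and -5.16 without the top cell of each library. In Control, the 8 highest members held 55 to 1020 UMIs, and in SC300, the 2 highest held 58 and 29. Of the 6 Control members with 100 or more *Trh* UMIs, 3 also had 100 or more *Cartpt* UMIs. In the GABAergic neurons the log2 ratio of *Trh* was -0.35. *Npvf*, the RFamide-related peptide, had 856 UMIs in 1 Control member and 3 in 1 SC300 member. *Pomc* was at 53 and 863 UMIs, of which 1 SC300 member held 614 and another 178, and *Grp* at 10 and 174, of which 1 SC300 member held 168.

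*Kiss1* and *Tac3*, co-expressed in the kisspeptin neurons of the ARC, were lower in SC300 and rested on 3 cells. *Kiss1* had 434 and 145 UMIs (log2 ratio -1.78, -2.06 to -1.51) and *Tac3* had 834 and 310 (-1.63, -1.82 to -1.44). Without the top cell of each library *Kiss1* was at -1.78 and *Tac3* at -3.43. In Control, 2 members held 199 and 195 *Kiss1* with 404 and 353 *Tac3* UMIs, and in SC300, 1 member held 66 *Kiss1* with 264 *Tac3* UMIs. A further *Kiss1* cell in each library, with 32 and 39 UMIs, had no *Tac3* and carried *Fezf1*, and 1 more in SC300, with 32 UMIs, had neither. In GABAergic neurons *Kiss1* ran the other way, with 4 UMIs in Control and 90 in SC300 (log2 ratio 4.69, 3.28 to 6.60), while *Tac3* was at -0.57 (-0.83 to -0.33). In the *Fezf1* cells *Kiss1* was at -0.09 (-0.79 to 0.61).

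Most of the remaining peptides were within 2-fold. *Sst* (somatostatin) was at 2081 and 1477 CPM (log2 ratio -0.50), *Cartpt* at 992 and 638 CPM (-0.64), *Crh* at 150 and 93.6 CPM (-0.68) and *Cbln2* at 66.5 and 38.4 CPM (-0.79). Near equal were *Tac1* (substance P, -0.14), *Cbln1* (0.18), *Cbln4* (0.17), *Nppa* (-0.12), *Penk* (enkephalin, 0.28) and *Cck* (cholecystokinin, 0.41). *Pdyn* (dynorphin) was at 0.29 with all members and 0.84 without the top cell of each library, and *Gal* at 0.17 and 0.47. The Control member with 32991 *Avp* UMIs held 280 of the 691 *Pdyn* and 149 of the 329 *Gal* UMIs of Control. Past 2-fold were *Nppc* and *Pnoc*. *Nppc* (C-type natriuretic peptide) had 56 and 196 UMIs, with 82 in 1 SC300 cell, and *Pnoc* (nociceptin) 119 and 52, with 53 in 1 Control cell and a log2 ratio of -1.39, or -0.76 without the top cells. Of 24 measured genes in the list of neuropeptides and other secreted factors, 3 were past 2-fold higher and 6 past 2-fold lower in SC300, against 0.467% and 0.436% of all 6423 genes measured, and the list median was -0.13. Without the top cell of each gene, 5 were higher and 3 lower, and the median was -0.02.

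Over all genes, the members of the 2 libraries were similar. Of 6423 genes with at least 100 UMIs in the members of both libraries together, 30 were past 2-fold higher in SC300 (0.467%) and 28 past 2-fold lower (0.436%), with a median log2 ratio of -0.02. In 20 of the 30 and 14 of the 28 genes, 3 cells held over 50% of the UMIs in the library where the gene was higher. Without the 6 members of each library that carried RNA of other cell types, 19 genes were past 2-fold higher and 24 lower. When the top cell of each gene was left out in each library, 14 of the 30 and 20 of the 28 genes were still past 2-fold.

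**Figure D3:**
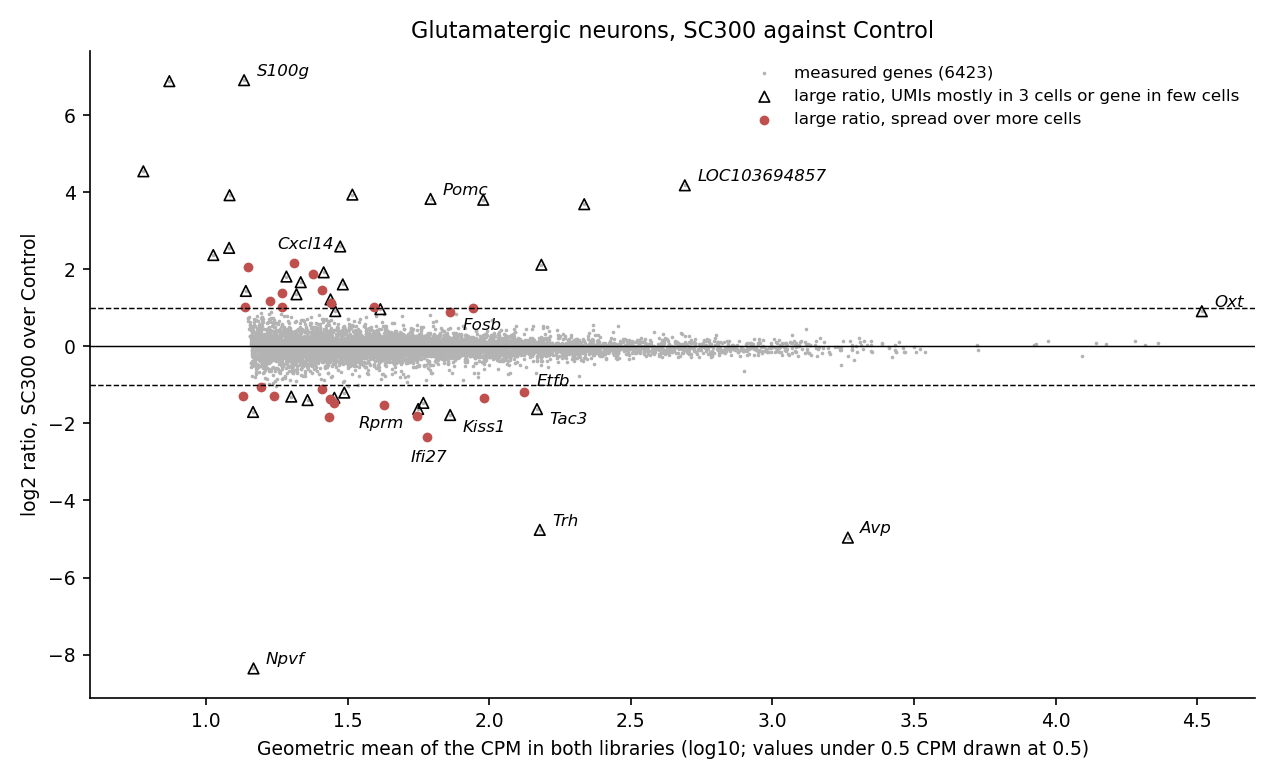
Each point is 1 of 6423 genes in the glutamatergic neurons, with the geometric mean of its CPM in both libraries (x, log10) and its log2 ratio SC300 over Control (y); dashed lines mark 2-fold. Triangles are genes with large ratios whose UMIs were mostly in 3 cells or that were found in few cells (among them *Avp*, *Trh*, *Oxt* and *S100g*), and red points are the 12 highest and 12 lowest of the others, which lay between 2.16 (*Cxcl14*) and -2.36 (*Ifi27*).

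Among genes found in at least 5% of members and not held by 3 cells, *Ifi27*, an interferon-induced gene, had the lowest ratio. It had 439 UMIs in 42 Control members and 98 UMIs in 18 SC300 members, 136 and 26.5 CPM, a log2 ratio of -2.36 (-2.69 to -2.04). *Prim1*, the catalytic subunit of DNA primase, had 165 UMIs in 66 Control members and 53 in 41 SC300 members, at -1.84 (-2.31 to -1.38). *Arl16*, a small GTPase, had 232 UMIs in 73 members and 92 in 52, at -1.53 (-1.90 to -1.18). *Etfb*, an electron carrier of fatty acid oxidation, was found in 78 members of each library and had 644 and 324 UMIs, at -1.19 (-1.39 to -0.997). *Etfb* was found in most members of both libraries, and the other 3 were found in fewer SC300 than Control members.

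*Rprm* (reprimo), a cell-cycle arrest gene known in the ventromedial nucleus as a gene of estrogen-responsive neurons, was at 103 and 29.7 CPM. It had 333 UMIs in 39 of 80 Control members, with 41 in the highest cell, and 110 UMIs in 32 of 87 SC300 members, with 29 in the highest cell. The log2 ratio was -1.80 (-2.12 to -1.48) and, without the top cells, -2.06. At 2 or more UMIs it was found in 36.3% (25.8 to 47.8%) and 21.8% (13.7 to 32%) of members, and in 17.5% and 3.53% of cells thinned to 5000 UMIs. No cell of the microglia had 2 or more *Rprm* UMIs. Its level was lower in *Fezf1* cells than in the other members, at 51.9 against 126 CPM in Control and 17.1 against 36.1 CPM in SC300, and 282 of its 333 Control UMIs were in the other members.

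The other 7 low genes were *LOC103690156* (log2 ratio -1.46), *Bphl* (a serine hydrolase, -1.37), *LOC102553190* (-1.34, in 18 and 9 members), *Cd302* (a C-type lectin receptor, -1.29), *Adra2a* (the alpha-2A adrenergic receptor, -1.29), *Gpr83* (a peptide receptor, -1.10) and *Ier3* (an early response gene, -1.07). On the high side, *Cxcl14*, a chemokine also made by neurons, had 31 UMIs in 12 Control members and 159 in 25 SC300 members, at 2.16 (1.60 to 2.76). *LOC100911991* had 22 UMIs in 18 members and 106 in 49, at 2.07 (1.40 to 2.80). *Ecel1*, a neuronal endopeptidase, had 40 and 170 UMIs, at 1.89 (1.38 to 2.42), and *Prps2*, of nucleotide synthesis, had 50 and 157, at 1.45 (0.98 to 1.94). Lower on this list came *Rsph1* (a cilium gene, 1.38), *Ramp1* (part of the CGRP receptor, 1.17), *C1ql1* (a synaptic organiser, 1.13), *Ermp1* (1.02), *Lix1* (1.02), *Plpp4* (a lipid phosphatase, 1.01), *Mbp* (0.99) and *Fosb* (0.90). *Mbp* is a myelin gene, and 45.4% of its SC300 UMIs were in 3 members.

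Set aside by the limits on cells were 23 genes on the high side and 12 on the low side. On the high side they were led by *S100g*, a calcium-binding protein, with 4 UMIs in 3 Control members and 551 UMIs in 22 SC300 members, 79.7% of them in 3 cells. Its log2 ratio was 6.91 (5.54 to 8.79) and, without the top cell of each library, 6.81. In GABAergic neurons *S100g* had 35 and 1603 UMIs (log2 ratio 5.72, 5.23 to 6.24), so it was higher in both neuron classes of the SC300 library. The genes set aside also included the haemoglobin genes.

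Several of these genes differed in the same direction in other cells of the same libraries. Of the 12 low genes, all with at least 50 UMIs in GABAergic neurons, 4 were past 2-fold lower there (*Ifi27*, *Prim1*, *Arl16* and *LOC103690156*), against 1.74% of all genes with at least 50 UMIs in those cells. In microglia 2 of 7 were past 2-fold lower, against 0.664% of all such genes, and in oligodendrocytes 3 of 7, against 0.641%. *Arl16* had log2 ratios of -1.53, -1.57, -2.28 and -1.73 in glutamatergic neurons, GABAergic neurons, microglia and oligodendrocytes. Of the 12 high genes, 2 were past 2-fold higher in GABAergic neurons (*LOC100911991* and *Ermp1*), against 1.32% of all such genes, and *LOC100911991* was at 2.07, 2.17, 2.67 and 2.22 in the same 4 cell types. Past 2-fold in the opposite direction in oligodendrocytes were the low gene *Ier3*, at 1.05 (0.68 to 1.44), and the high gene *C1ql1*, at -1.03 (-1.61 to -0.47). In microglia *C1ql1* was past 2-fold higher, with 9 UMIs in Control and 71 in SC300, at 2.83 (1.83 to 4.02). Past 2-fold in glutamatergic neurons but not in GABAergic neurons, *Rprm* was at -0.54 (-0.83 to -0.27) in GABAergic neurons, *Cxcl14* at -0.00 (-0.22 to 0.21), *Cd302* at 0.29, *Gpr83* at 0.05, *Prps2* at -0.58 and *Plpp4* at -0.69. Also within 2-fold there, but on the same side, were among others *Bphl* at -0.97, *Etfb* at -0.86, *LOC102553190* at -0.81, *Rsph1* at 0.90 and *C1ql1* at 0.84. The counting interval in GABAergic neurons lay on the same side for 9 of the 12 low and 7 of the 12 high genes. With 1 library a group, a difference between rats, libraries or treatments cannot be told apart for any of them.

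**Figure D4:**
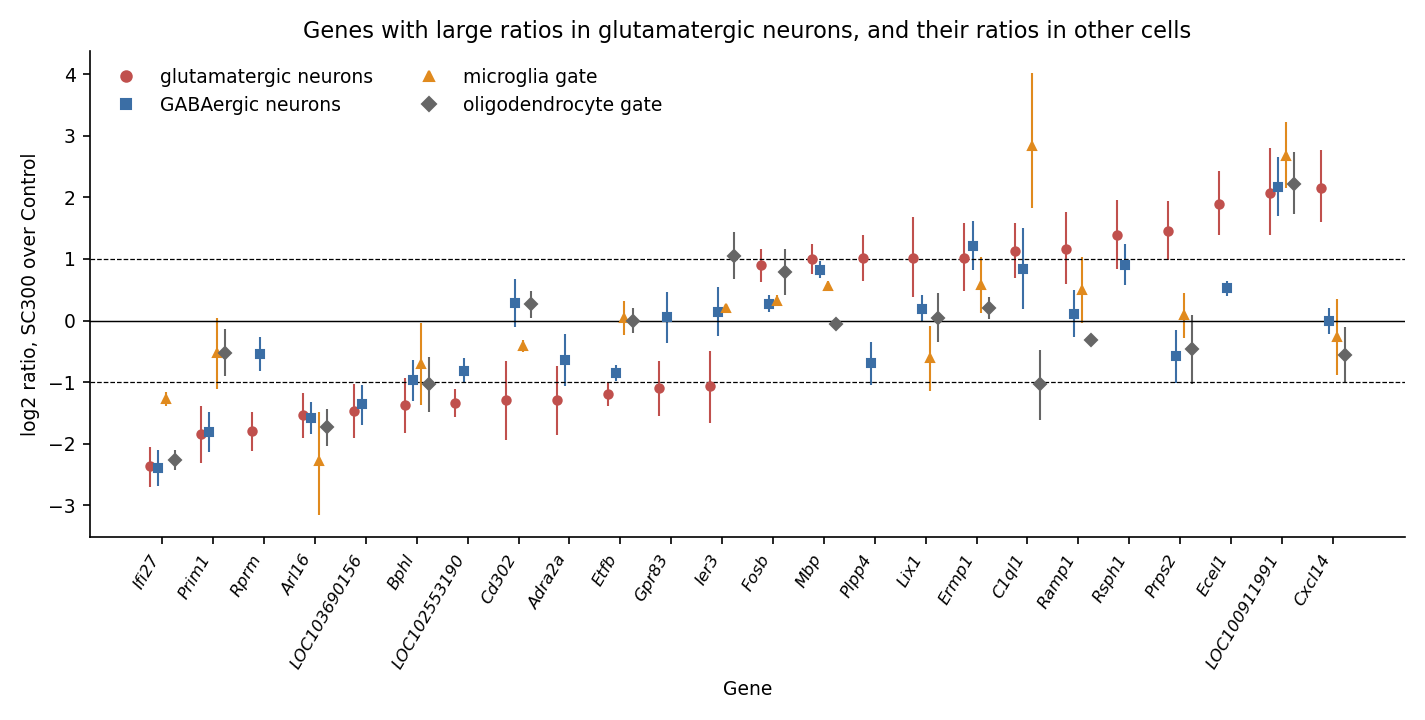
Log2 ratio SC300 over Control (y) of the 24 genes with large, widespread ratios in glutamatergic neurons (red circles), and in GABAergic neurons, microglia and oligodendrocytes where the gene had at least 50 UMIs; bars are exact 95% counting intervals and dashed lines mark 2-fold. *Arl16* and *LOC100911991* lie on the same side in all 4 cell types, while *Rprm*, *Cxcl14* and *Plpp4* lie past 2-fold in glutamatergic neurons and not in GABAergic neurons.

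Within the *Fezf1* cells, the genes of the ventromedial nucleus list were compared between the libraries. *Fezf1*, which chose these cells, was at 220 CPM in 23 Control and 115 CPM in 25 SC300 cells, and over all members it had 217 and 146 UMIs (log2 ratio -0.77). *Nptx2* was at 222 and 251 CPM (log2 ratio 0.18, -0.08 to 0.44), *Gda* at -0.13, *Cnr1* at -0.23, *Sox14* at -0.03 and *Lmo3* at 0.03, all with intervals that included 0. *Dlk1* was higher in SC300 *Fezf1* cells, with 7 and 31 UMIs, of which 3 cells held 71.4% and 87.1% (log2 ratio 1.82, 0.61 to 3.25). Over all members, *Sox14* was at -0.16, *Lmo3* at -0.10, *Gda* at -0.20, *Cnr1* at -0.03, *Nptx2* at 0.37 and *Dlk1* at -0.05. No gene of the 9 measured was past 2-fold over all members, against 0.903% of all genes measured.

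*Adcyap1* and *Bdnf* ran in opposite directions inside and outside the *Fezf1* cells. *Adcyap1* was at 215 CPM in Control and 309 CPM in SC300 *Fezf1* cells, a log2 ratio of 0.53 (0.28 to 0.78), and at 168 and 101 CPM in the other members, -0.74 (-0.97 to -0.50). Over all members these cancelled, at -0.10 (-0.26 to 0.07). *Bdnf* was at 98.6 and 153 CPM in *Fezf1* cells (0.64, 0.28 to 1.01) and at 113 and 63.6 CPM in the others (-0.83, -1.13 to -0.54). *Cbln1* was at 0.52 and -0.64 and *Tac1* at 0.41 and -0.43. *Rprm* was lower in both, at -1.60 (-2.41 to -0.85) and -1.81 (-2.17 to -1.46).

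**Figure D5:**
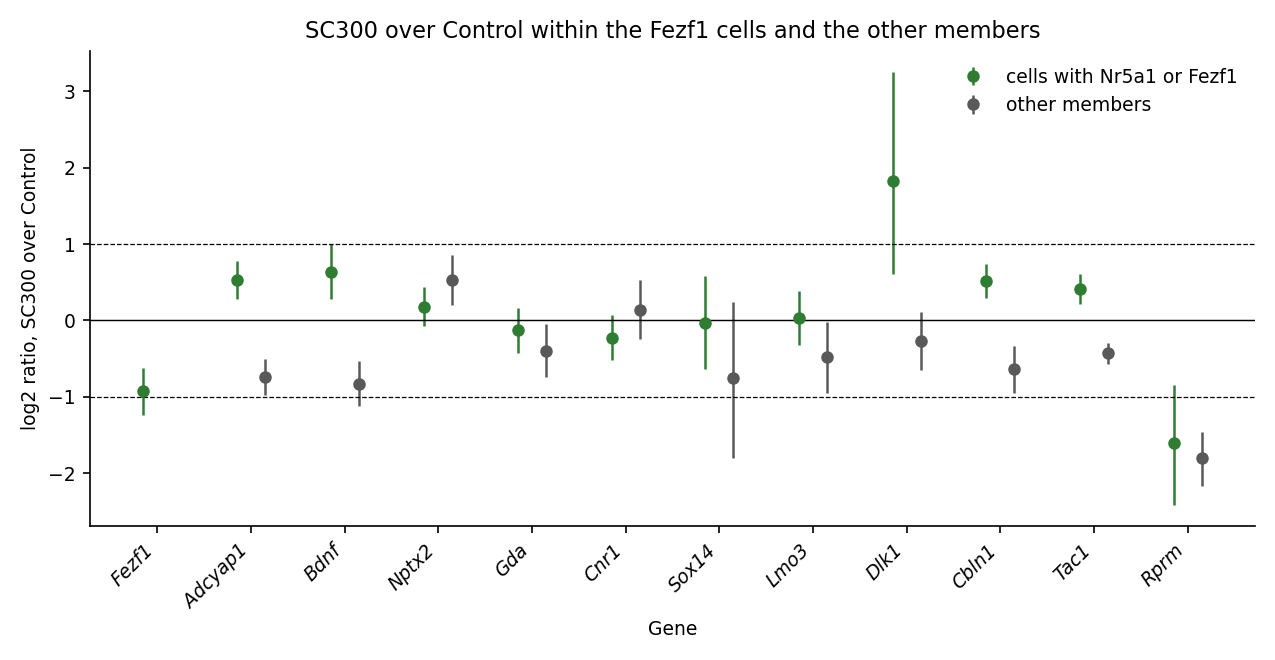
Log2 ratio SC300 over Control (y) of 12 genes in members with at least 2 UMIs of *Nr5a1* or *Fezf1* (green) and in the other members (grey), with exact 95% counting intervals; *Fezf1* is drawn only where it chose the cells. *Adcyap1*, *Bdnf*, *Cbln1* and *Tac1* lie above 0 in the *Fezf1* cells and below 0 in the others, and *Rprm* lies below -1 in both.

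The *Fezf1* cells of SC300 included the members with haemoglobin, myelin and endothelial RNA and 1 oxytocin cell. *Cldn5* had 8 UMIs in Control and 123 in SC300 *Fezf1* cells, with 117 in 1 SC300 cell. *LOC103694857* was at 113 CPM in Control and 6147 CPM in SC300 *Fezf1* cells. Without the members that carried RNA of other cell types, *Adcyap1* was at 0.56 and -0.81 and *Bdnf* at 0.97 and -0.88, so these directions were kept.

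Steroid receptors were low in these cells. *Esr1*, the estrogen receptor α gene, had 28 UMIs in 11 Control members and 18 UMIs in 9 SC300 members (log2 ratio -0.84, -1.78 to 0.07), and 19 and 8 of these UMIs were in *Fezf1* cells. *Pgr*, the progesterone receptor, had 2 and 6 UMIs. Neither reached 100 UMIs, and over all members a difference was not detectable at this depth. Within *Fezf1* cells the log2 ratio of *Esr1* was -1.57 (-2.97 to -0.31), where 3 cells held 94.7% of its UMIs in Control and 100% in SC300. *Greb1* and *Prlr*, estrogen-regulated genes below the minimum, had 11 and 41 and 29 and 50 UMIs. None of the 12 measured nuclear receptors was past 2-fold, against 0.903% of all genes measured. *Thrb*, a thyroid hormone receptor, was lowest at -0.99 (-1.58 to -0.42) and *Nr2f1* (COUP-TFI) highest at 0.58 (0.21 to 0.96). Between them lay *Thra* (0.16), *Nr2f2* (0.26), *Esrra* (-0.09), *Nr1d1* (-0.14), *Nr1d2* (-0.36), *Nr0b1* (DAX-1, -0.30), *Rora* (-0.52), *Rorb* (-0.31) and *Rxrg* (-0.52). Of the estrogen-regulated list, chosen with earlier results of these data known, 6 genes were measured and 3 were past 2-fold lower (*Rprm*, *Kiss1*, *Tac3*), against 0.436% of all genes, with a median of -0.89, and *Penk*, *Gal* and *Tac1* were not. *Kiss1* and *Tac3* rested on the few cells described above.

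Genes of excitatory transmission were mostly within 2-fold, as were most genes of any kind. Of all 6423 genes measured 0.903% were past 2-fold, a share at which lists this short would mostly hold none. Of 6 measured genes of glutamate synthesis and vesicular loading, the log2 ratios lay between -0.24 (*Gls2*) and 0.02 (*Slc17a6*, which chose the cells). Of 24 vesicle release genes they lay between -0.59 (*Rab3b*) and 0.27 (*Stx1a*), with a median of 0, the neuronal genes *Snap25* and *Syt1* of the rule included. Of 12 glutamate receptors none was past 2-fold, with *Gria2*, the most abundant, at -0.10, *Gria1* highest at 0.40 and *Grm2* lowest at -0.90 (-1.41 to -0.41), or -1.03 without its top cells. None of 9 GABA receptor genes was past 2-fold, and *Gabbr1*, the most abundant, was at -0.01. The same held for 14 sodium and calcium channel genes (*Cacna2d1* at -0.25 to *Hcn3* at 0.44) and 16 potassium channel genes, where *Kcnq5* was at -0.70 and *Kcnmb4* at 0.80 (0.52 to 1.10).

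Of the further lists given here, only the immediate-early genes held a gene past 2-fold, *Ier3*. This was 1 of 11 genes, against 0.436% of all genes measured past 2-fold lower, and none without the top cells. Of 15 genes of peptide processing, *Pcsk2*, a prohormone convertase, was lowest at -0.68 (-0.86 to -0.50), *Cadps2* highest at 0.33 and *Resp18*, the most abundant, at -0.14. The 18 measured genes of the calcium-binding protein list, which does not hold *S100g*, ran from *Hpca* at -0.38 to *Pcp4* at 0.44, and axon guidance genes from *Ephb1* at -0.54 to *Sema6d* at 0.58. Of 7 measured hormone and peptide receptors, *Calcr* was at -0.38 and *Tacr3*, the neurokinin B receptor, at 0.76 (0.15 to 1.39). Immediate-early genes, which neuronal activity and tissue dissociation induce, had a median of -0.38 over 11 genes, from *Ier3* at -1.07 (-0.82 without its top cells) to *Fosb* at 0.90, with *Jund*, the most abundant, at -0.77 (-0.92 to -0.62) and *Fos* at 0.04. Mitochondrial and nuclear genes of oxidative phosphorylation had medians of 0.06 and -0.08, heat shock genes -0.02, clock genes -0.12 and cholesterol synthesis genes -0.06.

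Markers of other cells were in part held by the single members named above. The 9 genes of the GABA list found in the files summed to 15 UMIs in Control and 25 in SC300, a sum held down by the choice of cells, since *Gad1*, *Gad2* and *Slc32a1* are among them. Of the genes the choice did not use, *Dlx2*, *Dlx5*, *Sp9* and *Lhx6* were at 0 in both. The 10 oligodendrocyte genes summed to 751 and 2394 UMIs, and 1382 of the SC300 UMIs were in 1 member. Of the 5 measured, 2 were past 2-fold higher in SC300, and none without the top cells. The shares over all genes measured, for this and the counts that follow, were 0.467% higher and 0.436% lower. The haemoglobin genes summed to 678 and 12890 UMIs, of which 12548 were in 1 SC300 member, and all 6 measured were past 2-fold higher, while without the top cell of each library 4 were past 2-fold lower. The 10 astrocyte genes summed to 4006 and 5044 UMIs, led by *Clu* in Control and *Apoe* in SC300, with none at 0, and were spread over members, with a median of 29.5 and 30 UMIs per member and 823 and 1141 UMIs in the highest. Of the 8 measured, 1 (*Gfap*) was past 2-fold lower in SC300, and without the top cells 2 were past 2-fold higher and none lower. The 12 microglia genes summed to 262 and 144 UMIs, with *Pf4* and *Cd74* at 0 in Control. The 8 endothelial and mural genes found in the files summed to 406 and 307, led by *Cldn5* with 313 and 130, of which 370 and 276 of the summed UMIs were in 1 member of each library. Of the 10 tanycyte and ependymal genes, *Rax* and *Col23a1* were at 0 in both libraries, and the 2 measured, *Vim* and *Crym*, were past 2-fold lower in SC300. The part of these cells in the ratios of genes not named here was not tested.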

How the data were processed

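Hypothalamic cells were sequenced with the 10x 3′ kit. Per the file headers and the labels, Cell Ranger 3.0.1 was run by the authors (3.0.2 for demultiplexing) against the Ensembl 96 transcriptome. The authors deposited UMI counts per gene and cell barcode for 32883 genes, without normalization. A merging step is also described, and the values remained whole counts. The libraries list 4488 and 4524 barcodes, with 52004789 and 57013099 UMIs, and 4296 and 4379 had at least 200 genes. Members were found by the rule in the text, no clusters were made, and doublets, called per library with Scrublet in scanpy 1.11.5 (70 and 73, 1.63% and 1.67%; 3 and 4 members), were kept.

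UMIs were summed per gene over members and scaled to CPM. With 1 library a group no test was made. Shares have Clopper-Pearson intervals and ratios exact intervals from the binomial split of a gene's UMIs, and both cover counting error only. A count of 0 was set to 3 UMIs over the group. Microglia and oligodendrocytes had at least 4 of their marker genes and at most 1 neuronal gene. Genes were named as the members of 4 lists (ventromedial nucleus, neuropeptides, nuclear receptors, estrogen-regulated genes), the lowest, highest and most abundant genes of the other lists, the 12 highest and 12 lowest ratios among genes with at least 100 UMIs, in at least 5% of members and with at most 50% of UMIs in 3 cells, and the 10 highest and lowest against GABAergic neurons. Further genes of the *Fezf1* comparison, *S100g* and genes of other cells were chosen after their values were seen. Members and lists were chosen with earlier results of these data known. Calculations used Python 3.11.15, numpy 2.4.6, pandas 2.3.3 and scipy 1.17.1 and were tested on simulated data. Alternatives were other limits of the rule, doublets or mixed members left out, other scalings, other minimum counts and thinned cells. Some genes that these rules would name are not reported here.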

Additional observations from a re-analysis of the deposited data

Results flagged for a closer look

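In 4 genes of the ventromedial nucleus, neuropeptide, nuclear receptor and estrogen-regulated lists, among those with at least 100 UMIs both in *Fezf1* cells and in the other members, the SC300 over Control ratio differed between *Fezf1* cells and the other members with counting intervals on opposite sides of 0. The log2 ratio in *Fezf1* cells exceeded that in the other members by 1.27 for *Adcyap1*, 1.47 for *Bdnf*, 1.16 for *Cbln1* and 0.84 for *Tac1*. With 1 library a group the difference was not tested, and in *Fezf1* cells *Tac1* rested on 3 members per library, with 94.2% of its UMIs in Control and 87.2% in SC300. The share of all genes with such intervals is not given here, so how common this pattern is cannot be judged. The intervals also leave out the spread between cells.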

How the results depend on the processing

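No paired analysis was possible because each group is 1 library. The count of genes past 2-fold depended on the minimum: 81 were higher and 68 lower at 50 UMIs, and 16 were higher at 200 UMIs. Thinned to 5000 UMIs per cell, 6 were higher and 6 lower of 1423 measured. With a mitochondrial limit of 10%, 10 of 2313 measured were higher, and with 6 of 6 neuronal genes, 10 of 2220, against 30 of 6423 in the text. With *Slc17a6* at 1 or more UMIs, 62 were lower. In alternatives chosen after seeing the data (these and the oxytocin and vasopressin cells left out), 19 were higher without members carrying RNA of other cells and 18 without the top cell of each gene. The mitochondrial limit of 10% moved the log2 ratio of member shares to -1.38 and that of *Fezf1* cells to 1.35, with 2 such cells in each library, and thinning moved the latter to -1.50. *Avp* changed direction to 2.16 with the limit of 10%, 1.56 with no GABA gene UMIs, 3.29 with 6 of 6 neuronal genes, 2.24 without mixed members, 1.08 without the oxytocin and vasopressin cells and 1.72 without the top cells, all of which left out its top Control cell. The subset ratios of *Fezf1*, *Adcyap1*, *Bdnf*, *Cbln1*, *Tac1* and *Rprm* stayed within their counting intervals in all 3 alternatives. The cause of the other shifts was not tested. Rare genes and cells are limited by 167 members and 1 pool a group.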
